A study of Homo sapiens with 6 samples.

Results

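Ragulator and the Rag GTPases are a lysosomal protein assembly whose 9 human genes, LAMTOR1 to LAMTOR5 and RRAGA to RRAGD, were followed here in MOLM13 acute myeloid leukemia cells. Members were taken by gene symbol from the deposited count files, which hold 56305 genes. All 9 members were found and all 9 passed the filter on low counts, as did 20399 genes in all. The choice of the assembly used these data, since it was picked with the rise of LAMTOR2 after treatment known. For the members, the treatment values are therefore a description, and no p is given for them.

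MOLM13 is a leukemia cell line that carries an internal tandem duplication of FLT3. RNA was sequenced from 3 samples treated with ZW27941 at 1 μM and 3 given DMSO, the vehicle, all for 24 h. The label of the DMSO libraries also gives 1 μM. ZW27941 is a proteolysis-targeting chimera, a bivalent molecule that brings METTL3, the catalytic subunit of the mRNA N6-adenosine methyltransferase, to the VHL ubiquitin ligase for degradation. An inactive analog was not analysed here, and 1 cell line, 1 dose and 1 time point were measured. No source used here states whether the 3 libraries of a group came from separate cultures, so that p-values measure the spread between these libraries, which may be technical.

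The Rag GTPases relay amino acid supply to mTORC1, the kinase complex that promotes growth and restrains autophagy. RagA or RagB binds RagC or RagD as a heterodimer, and in nutrient-fed cells the dimer recruits mTORC1 to the lysosome, where RHEB activates it. Ragulator holds the Rag dimer on the lysosomal membrane: LAMTOR1 is the lipid-anchored subunit that wraps around the others, while LAMTOR2 pairs with LAMTOR3 and LAMTOR4 pairs with LAMTOR5. The LAMTOR2 and LAMTOR3 pair also serves as a scaffold for MEK1 and ERK on late endosomes. Inherited deficiency of LAMTOR2 causes a syndrome with a shortage of neutrophils, which links this subunit to the myeloid lineage.

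Between 143454176 and 178744976 counts per library fell on genes, while the protocol in the labels states 50M raw reads per sample. METTL3 RNA was at 122 ± 1.17 CPM (counts per 1e6 counts, scaled by the TMM method; SD, n = 3) with DMSO and 123 ± 4.96 CPM with ZW27941. Because a degrader acts on the protein, this RNA level does not check the labels. Of 10 myeloid leukemia markers, 9 had a mean of at least 1 CPM and only CD68 lay below, at 0.226 CPM. Their summed level was 2429 to 2504 CPM with DMSO and 2693 to 2763 CPM with ZW27941. LYZ had the largest rise of these markers in CPM, from a mean of 963 to 1160 CPM. In proportion, the largest was that of CSF1R, from 48.2 to 63.8 CPM. The means of FLT3 (563 to 555 CPM), HOXA9 (50.6 to 48.5), MEIS1 (46.6 to 45.9) and CD68 (0.231 to 0.222) were lower. None of the 3 CD3 genes of T cells reached 1 CPM, and their summed level was 0.118 to 0.318 CPM with DMSO and 0.118 to 0.227 CPM with ZW27941. The summed level of 3 B cell markers was 1.90 to 2.26 CPM with DMSO and 1.63 to 1.82 CPM with ZW27941, that of 3 epithelial markers 20.1 to 20.4 and 17.2 to 18.4 CPM, and that of 3 fibroblast markers 1.90 to 2.02 and 1.33 to 1.95 CPM. The epithelial level lay in KRT18 (means 12.7 and 10.2 CPM) and KRT8 (7.49 and 7.36), while EPCAM was at 0.00442 and 0.00763 CPM. The part of these shifts in the results given here was not tested.

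LAMTOR2 was the member that stood apart. With DMSO, LAMTOR2 was at 40.8, 39.2 and 39.8 CPM, and with ZW27941 at 58.4, 56.7 and 60.7 CPM. The lowest treated library lay well above the highest control library, and the values within each group were close together. The mean went from 39.9 ± 0.830 to 58.6 ± 1.97 CPM (SD, n = 3), a rise of 46.7% or 0.55 ± 0.030 on the log2 scale (log2 fold change ± SE from edgeR). These levels rest on 5849, 5906 and 6092 counts with DMSO and 10530, 8180 and 9695 counts with ZW27941. Among the 12238 genes whose mean log2 CPM reached 1, LAMTOR2 ranked 40 by the size of its rise. Leaving out any 1 library gave a log2 fold change of 0.53 to 0.57. In bulk RNA, a shift in the makeup of the cell population and a change of RNA per cell cannot be told apart.

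LAMTOR3, the roadblock-domain partner of LAMTOR2, differed in the opposite direction. LAMTOR3 was at 27.1, 24.6 and 26.4 CPM with DMSO and 24.8, 23.8 and 24.0 CPM with ZW27941, so that the groups overlapped through DMSO replicate 2. Its log2 fold change was −0.11 ± 0.036.

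LAMTOR1, the membrane anchor, was at 47.1, 45.6 and 45.8 CPM with DMSO and 47.7, 48.6 and 49.7 CPM with ZW27941. The treated libraries were all higher, but the gap between the groups was smaller than the spread within either of them, and the log2 fold change was 0.07 ± 0.028.

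The other roadblock pair showed small differences of opposite sign. LAMTOR4 was at 51.7, 54.1 and 52.8 CPM with DMSO and 54.5, 53.2 and 58.0 CPM with ZW27941, a log2 fold change of 0.06 ± 0.032. LAMTOR5 was at 66.1, 66.2 and 67.1 CPM with DMSO and 62.5, 64.2 and 66.6 CPM with ZW27941, a log2 fold change of −0.05 ± 0.028. The groups overlapped for both genes, and ZW27941 replicate 3 was the highest treated library for each of them.

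**Figure D1:**
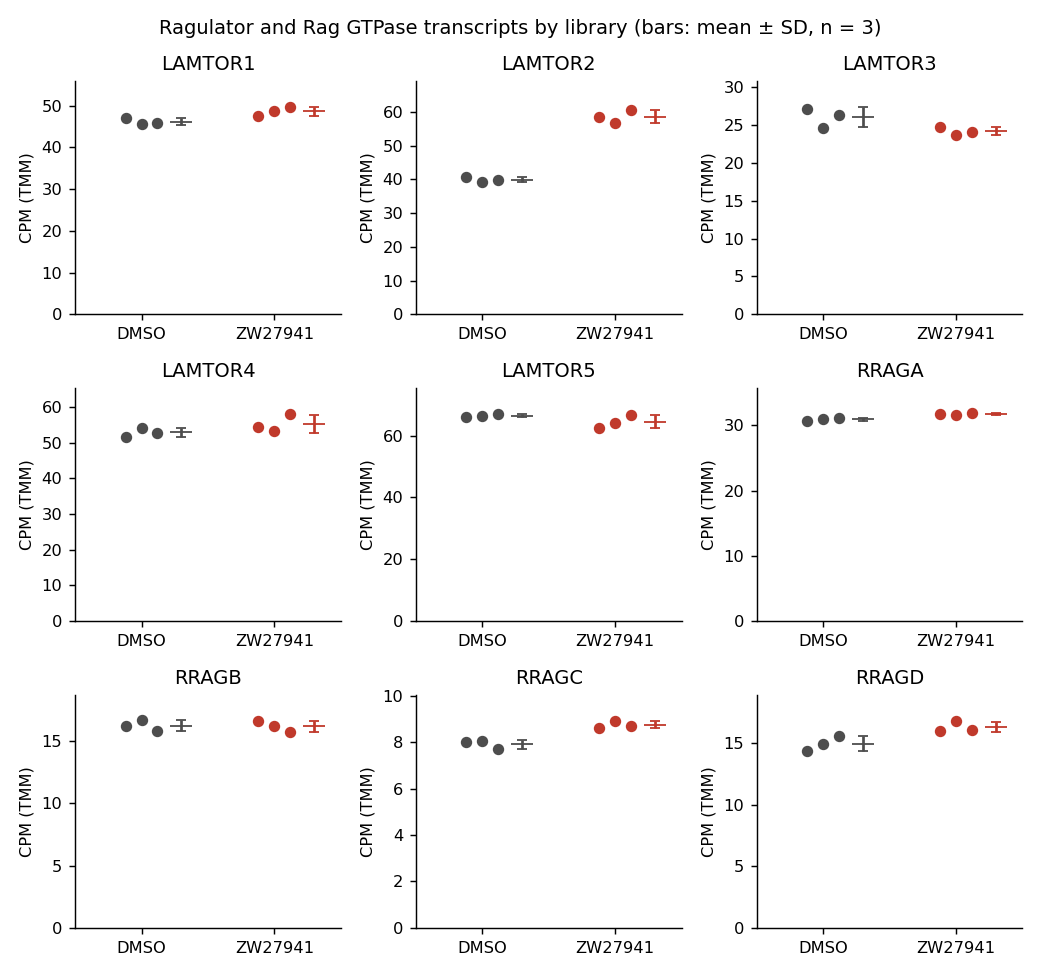
CPM of each of the 9 members in the 3 DMSO and 3 ZW27941 libraries (1 point per library, with mean and SD beside them). LAMTOR2 has the widest gap between groups, 39.2 to 40.8 CPM against 56.7 to 60.7 CPM, while the points of LAMTOR3, LAMTOR4, LAMTOR5 and RRAGB overlap.

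Among the Rag GTPases, the A and B paralogs, which carry GTP in the active dimer, differed little between the groups. RRAGA was at 30.7, 31.0 and 31.2 CPM with DMSO and 31.7, 31.6 and 31.9 CPM with ZW27941, with a log2 fold change of 0.04 ± 0.029. RRAGB was at 16.2, 16.7 and 15.8 CPM with DMSO and 16.6, 16.2 and 15.7 CPM with ZW27941. RRAGA libraries did not overlap although the means differed by less than 1 CPM, 31.0 ± 0.217 against 31.7 ± 0.162 CPM. RRAGB overlapped fully and its log2 fold change of −0.0035 ± 0.037 was smaller than its error.

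The C and D paralogs, which carry GDP in the active dimer, were both higher with ZW27941. RRAGC was at 7.98, 8.06 and 7.69 CPM with DMSO and 8.62, 8.90 and 8.71 CPM with ZW27941, a log2 fold change of 0.14 ± 0.052. RRAGD was at 14.3, 14.9 and 15.6 CPM with DMSO and 16.0, 16.8 and 16.1 CPM with ZW27941, a log2 fold change of 0.12 ± 0.039. For both genes the treated libraries lay above all control libraries, and both log2 fold changes were smaller than that of LAMTOR2.

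**Figure D2:**
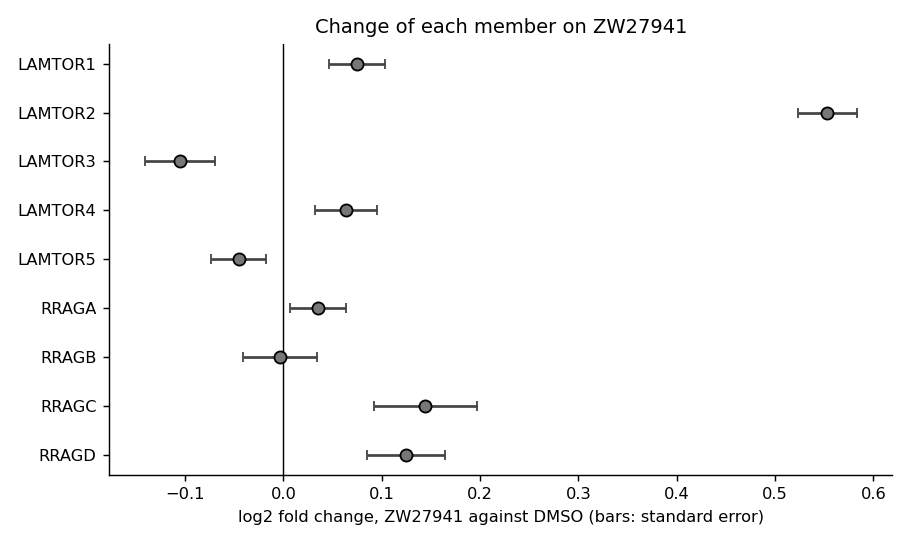
Log2 fold change (ZW27941 minus DMSO) of the 9 members from edgeR, with bars of 1 SE; the vertical line marks 0. LAMTOR2 lies at 0.55 and the other 8 members between −0.11 and 0.14.

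By edgeR's quasi-likelihood test, 5 of the 9 members passed an adjusted p of 0.05, namely LAMTOR1, LAMTOR2, RRAGC and RRAGD as higher and LAMTOR3 as lower. Over all genes tested, 30.1% passed, 16.3% as higher and 13.8% as lower. Among genes whose mean log2 CPM reached 1, as it did for all 9 members, 23.5% passed as higher and 18.7% as lower. Groups did not overlap for 5 of 9 members, all with ZW27941 higher, beside 41.6% of all genes tested (21.7% with ZW27941 higher and 19.9% with ZW27941 lower). Because the members were chosen with this contrast known, nothing is read from these counts. Of 13 alternatives, 9 lost the call of LAMTOR1, 7 that of RRAGC, and 4 each those of LAMTOR3 and RRAGD. The median log2 fold change was 0.063 over the 9 members and 0.049 over the 8 members without LAMTOR2, beside −0.0019 over all genes tested. The number of members called ranged from 1, without ZW27941 replicate 2, to 5, without ZW27941 replicate 3, and it was 2 without any 1 DMSO library. Without ZW27941 replicate 3 the members called were not the same, since LAMTOR1 lost its call and LAMTOR5 gained one as lower.

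Replicate error was small for every member. In the DMSO libraries the coefficient of variation was lowest for RRAGA, at 0.700%, and highest for LAMTOR3, at 4.97%. That of RRAGA was below the 1.43% that counting alone would give, so its narrow spread understates the error. The same held with DMSO for LAMTOR5 (0.831%, against 0.993% from counting) and RRAGC (2.43% against 2.78%). For LAMTOR2 the coefficient of variation was 2.08%.

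Levels of different genes were compared per length, as CPM per kb of the longest annotated transcript. With DMSO, LAMTOR4 was highest at 72.4 ± 1.65 CPM per kb, followed by LAMTOR2 at 46.0 ± 0.956, LAMTOR5 at 36.3 ± 0.302 and LAMTOR1 at 34.3 ± 0.607 (SD, n = 3). RRAGA followed at 19.5 ± 0.136 CPM per kb and RRAGB at 7.86 ± 0.219, while LAMTOR3 stood at 6.16 ± 0.306, the lowest of Ragulator. RRAGD at 3.05 ± 0.126 and RRAGC at 2.90 ± 0.0703 CPM per kb were lowest, and only for this pair of neighbours did the DMSO libraries overlap. The highest and lowest members differed 25.0-fold per length. With ZW27941, LAMTOR2 rose to 67.5 ± 2.27 CPM per kb and stayed below LAMTOR4 at 75.7 ± 3.43, while LAMTOR1 at 36.2 ± 0.768 and LAMTOR5 at 35.2 ± 1.14 exchanged places. The order depended on the length used: with the union of all annotated exons, LAMTOR5 and LAMTOR2 were both at 27.8 and LAMTOR4 at 27.3 CPM per kb.

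**Figure D3:**
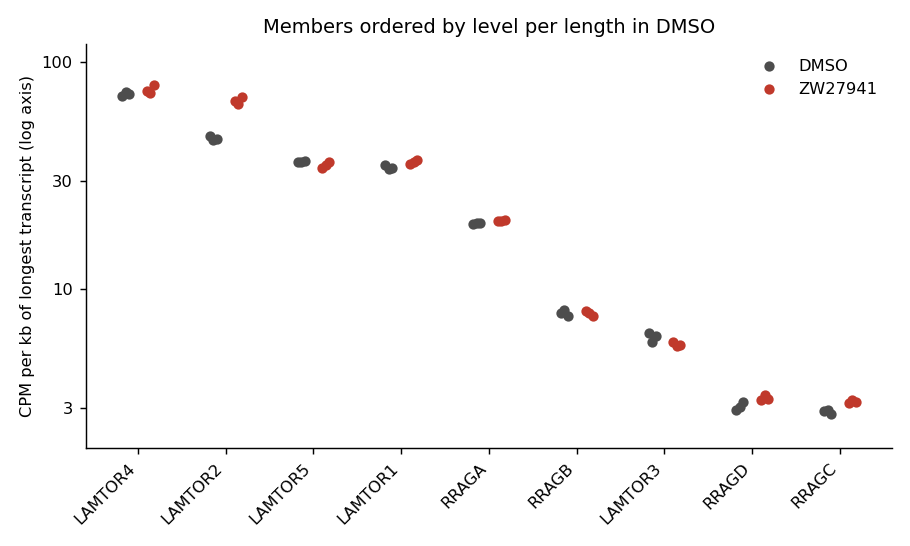
Level of each member in CPM per kb of its longest transcript, on a log axis, for DMSO and ZW27941 libraries (points, 3 libraries per group). Levels run from 2.90 CPM per kb for RRAGC to 72.4 for LAMTOR4 with DMSO, and LAMTOR2 moves from 46.0 to 67.5.

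The balance between paralogs was close to the same in both groups. RRAGB made up 28.8 ± 0.657% of RRAGA plus RRAGB per length with DMSO and 28.2 ± 0.614% with ZW27941. RRAGD made up 51.3 ± 1.55% of RRAGC plus RRAGD with DMSO and 50.9 ± 0.255% with ZW27941. Within Ragulator the balance shifted: LAMTOR2 took 24.1, 23.1 and 23.5% of the summed Ragulator level per length with DMSO and 31.0, 30.4 and 30.6% with ZW27941. The ratio of LAMTOR2 to each other member rose by a factor of 1.33, against RRAGC, to 1.58, against LAMTOR3.

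LAMTOR2 lies on chromosome 1, and its gene model in GENCODE v29 spans chr1:156054752-156058510 on the plus strand of GRCh38. The bases upstream of it are shown because LAMTOR2 had the widest difference of the members. They come from RefSeq sequence of GRCh38.p14 and cover chr1:156054532-156054751 on the plus strand, with copies of an element in capitals whose motif was spelled as ACTAC, any 3 bases, then TCCCAG. This motif is known as a recognition sequence of the zinc finger factor ZNF143, and it was searched after the LAMTOR2 sequence had been seen.
LAMTOR2 upstream: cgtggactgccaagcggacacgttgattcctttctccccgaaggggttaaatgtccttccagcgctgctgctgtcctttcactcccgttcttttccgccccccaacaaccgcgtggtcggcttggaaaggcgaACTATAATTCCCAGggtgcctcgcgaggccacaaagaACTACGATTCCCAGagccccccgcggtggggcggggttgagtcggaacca
LAMTOR2 at the RefSeq start: gcgaagaaACTACAACTCCCAGggcgtccc

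The second sequence lies at chr1:156054762-156054791 and spans the transcription start that RefSeq annotates. Counted from that start, the elements begin at −117, −80 and −12. The first of them departs from the motif as spelled, so that 2 matches remain in the window from 250 bases before to 50 bases after the start. On either strand, at least 1 match was present in 447 of 35116 such windows of all genes (1.27%), and at least 2 matches in 39 (0.111%). None of the other windows of the members held a match. Windows were found for 7 of the 9 members (9 windows, since LAMTOR3 and LAMTOR5 had 2 each), and RRAGA and RRAGD are not among them. A match describes the letters and is no evidence of binding.

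The E-box core CACGTG was searched because factors of the TFEB and MITF family, which mTORC1 restrains, recognise it within their lysosomal gene element. It was present in 4 of the 9 member windows, those of LAMTOR1, LAMTOR4, RRAGC and RRAGB, and in 2548 of all 35116 windows (7.26%). The matches, in capitals, are printed on the strand of each gene. They lie at chr11:72103450-72103469 (minus strand), chr7:100148897-100148916 (plus), chr1:38859872-38859891 (minus) and chrX:55717717-55717736 (plus), in the order shown.
LAMTOR1: cccgcatCACGTGcttgcgt
LAMTOR4: ctgcaagCACGTGaccgggg
RRAGC: attccggCACGTGacggggc
RRAGB: cggcagtCACGTGacagact

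RRAGB held 3 copies in its window, and the copy shown is part of TCACGTGA, which 344 windows held (0.980%). The window of LAMTOR2 held no CACGTG, which says only that these letters are not in that window. The members with an E-box core had log2 fold changes of 0.07, 0.06, 0.14 and −0.0035, and those with windows that held none, LAMTOR2, LAMTOR3 and LAMTOR5, had 0.55, −0.11 and −0.05.

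Genes beside LAMTOR2 were compared to see whether the change extended along the chromosome. No other tested gene overlapped LAMTOR2, and genes that did not pass the filter were not examined. Its nearest tested neighbour, UBQLN4, a ubiquitin-binding shuttle factor, lies 957 bases away on the opposite strand and was at 76.4 ± 0.135 CPM with DMSO and 74.5 ± 1.05 CPM with ZW27941 (log2 fold change −0.04 ± 0.025, adjusted p = 0.316, edgeR). On the other side, MEX3A, an RNA-binding protein gene, lies 13502 bases away and had a log2 fold change of 0.06 ± 0.034 (adjusted p = 0.190, edgeR). Within 250 kb of the LAMTOR2 start, 19 other genes were tested, of which 3 rose and 3 fell (31.6%, beside 30.1% of all genes). Their log2 fold changes ran from −0.34, that of SCARNA4 at 0.348 CPM with DMSO (not called), to 0.15, with a median of −0.013. None approached that of LAMTOR2, whose rise was known at the choice, so the comparison is a description.

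The 3 genes of this window with the lowest p all fell. LMNA, which encodes the nuclear lamins A and C, went from 185 to 166 CPM (log2 fold change −0.15 ± 0.025, adjusted p = 5.40e-05, edgeR). PAQR6, a membrane receptor gene, went from 11.3 to 9.06 CPM (−0.32 ± 0.050, adjusted p = 4.19e-05), and SMG5, a factor of nonsense-mediated decay, from 177 to 163 CPM (−0.11 ± 0.025, adjusted p = 0.00118). The genes that rose, SYT11, SEMA4A and GLMP, are named after their values were seen, and the largest of their log2 fold changes was 0.15, that of GLMP. The call of GLMP was kept in all 13 alternatives, while that of SYT11 was lost in 6 and that of SEMA4A in 8, including each of the leave-one-out fits for SEMA4A and all of them but that without ZW27941 replicate 3 for SYT11.

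**Figure D4:**
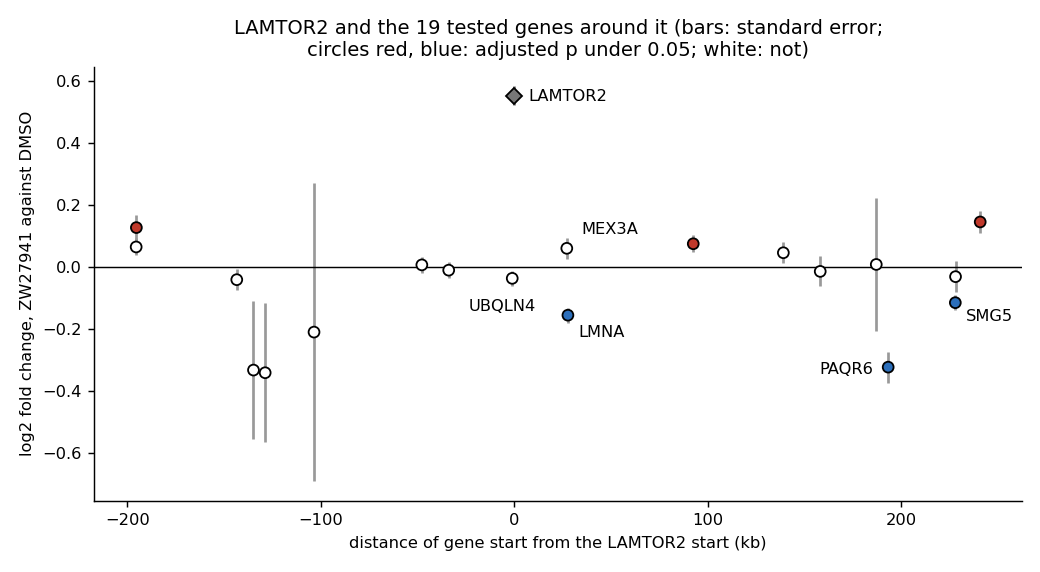
Log2 fold change (ZW27941 minus DMSO, bars of 1 SE) of the 19 tested genes around LAMTOR2 against the distance of their start from that of LAMTOR2 in kb; filled circles passed an adjusted p of 0.05. LAMTOR2 (diamond) lies at 0.55 and the neighbours between −0.34 and 0.15.

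Overlapping and nearest genes of every member, 21 in all, were read for the same reason and because reads of genes on opposite strands cannot be told apart where counting ignored strand, a setting not given in the sources used here. Of these genes, 3 rose and 1 fell (19.0%, beside 30.1% of all genes tested). The gene that fell, LAMTOR5-AS1, is transcribed antisense to LAMTOR5 and overlaps it. It was at 6.11, 5.92 and 5.87 CPM with DMSO and 5.34, 4.99 and 4.82 CPM with ZW27941, with no overlap between groups (log2 fold change −0.24 ± 0.064, adjusted p = 0.00622, edgeR).

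C7orf43, which overlaps LAMTOR4 on the opposite strand, had a log2 fold change of 0.10 ± 0.043 and an adjusted p of 0.0900 (edgeR), close to the 0.06 of LAMTOR4. LRTOMT, which overlaps LAMTOR1, was low at 1.92 CPM in both groups. The genes that rose were ANAPC15 beside LAMTOR1 (0.12 ± 0.039, adjusted p = 0.0234), CD53, 463245 bases from LAMTOR5 (0.11 ± 0.024, adjusted p = 0.00200) and CNTLN, 1545471 bases from RRAGA (0.09 ± 0.032, adjusted p = 0.0478, lost in 11 of 13 alternatives). The call of ANAPC15 was lost under upper-quartile scaling, without DMSO replicate 1 and without ZW27941 replicate 3. Of the pseudogene rows, LAMTOR3P1 had 1 count in all libraries together and LAMTOR3P2 and LAMTOR5P1 had none.

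The genes that act upstream and downstream of the Rag GTPases were read from a list of 46, all of which were tested. In this list 5 genes rose (10.9%, beside 16.3% of all genes) and 15 fell (32.6%, beside 13.8%), with a median log2 fold change of −0.055. Of these genes, 43 had a mean log2 CPM of 1 or more, of which 11.6% rose and 34.9% fell, beside 23.5% and 18.7% of all genes at that level. The list was compiled with earlier results of these data known, and its counts are a description. Calls among these genes numbered 20, and 14 to 21 when 1 library was left out.

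GATOR1 and KICSTOR, which together turn RagA and RagB off when amino acids are short, had 5 of 6 listed genes lower, 2 of 3 in GATOR1 and 3 of 3 in KICSTOR, and none higher, beside 13.8% lower of all genes tested and 18.7% of those whose mean log2 CPM reached 1. NPRL2 and NPRL3, subunits of GATOR1, fell by 0.20 ± 0.035 (adjusted p = 1.95e-04, edgeR) and 0.12 ± 0.028 (adjusted p = 0.00255) on the log2 scale. NPRL2 was at 25.5, 28.1 and 26.9 CPM with DMSO and 22.9, 23.4 and 23.9 CPM with ZW27941, with no overlap. The 3 listed genes of KICSTOR, which tethers GATOR1 to the lysosome, fell. C12orf66, now named KICS2, fell by 0.15 ± 0.039 (adjusted p = 0.00575) and ITFG2 by 0.11 ± 0.033 (adjusted p = 0.0109) on the log2 scale. KPTN, named after its value was seen, had a log2 fold change of −0.17 ± 0.062 (adjusted p = 0.0438). The call of KPTN was lost without DMSO replicate 2 (adjusted p = 0.253, edgeR), DMSO replicate 3 (0.105), ZW27941 replicate 1 (0.0797) or ZW27941 replicate 2 (0.101), and with library size alone. That of ITFG2 was lost without DMSO replicate 1 (0.0658), DMSO replicate 2 (0.0561) or ZW27941 replicate 2 (0.0598).

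GATOR2, which opposes GATOR1, had 1 of 5 genes higher and 2 lower. WDR24 rose from 18.3 to 20.6 CPM (log2 fold change 0.17 ± 0.037, adjusted p = 0.00124, edgeR) and WDR59 fell from 54.8 to 50.3 CPM (−0.12 ± 0.030, adjusted p = 0.00312). SEH1L, also a nucleoporin and named after its value was seen, had a log2 fold change of −0.09 ± 0.028 (adjusted p = 0.0250), a call lost without DMSO replicate 1 (0.185) or ZW27941 replicate 1 (0.0759) and with library size alone (0.0538). The complex of folliculin, which stimulates GTP hydrolysis by RagC and RagD, also moved in both directions. FLCN was at 47.6, 52.0 and 50.1 CPM with DMSO and 42.5, 42.5 and 41.8 CPM with ZW27941, with no overlap (−0.24 ± 0.031, adjusted p = 4.79e-06). Its partner FNIP2 rose from 14.9 to 16.6 CPM (0.16 ± 0.043, adjusted p = 0.00716), a call lost without ZW27941 replicate 1 (adjusted p = 0.0540) or replicate 2 (0.0547).

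Of 7 nutrient sensors, 2 fell (28.6%) and none rose. Over all genes tested, 13.8% fell and 16.3% rose, or 18.7% and 23.5% where mean log2 CPM reached 1. SESN3, GATSL3 and GATSL2 were low, at means of 1.49, 0.237 and 0.412 CPM with DMSO, and were not called. Both sensors that fell are sestrins. SESN2, which binds leucine and restrains GATOR2 and is itself induced by stress, had the lowest p in the list. It was at 23.3, 24.1 and 23.3 CPM with DMSO and at 18.5, 18.5 and 18.6 CPM with ZW27941 (log2 fold change −0.35 ± 0.032, adjusted p = 6.63e-08, edgeR). SESN1 went from 65.0 to 60.2 CPM (−0.11 ± 0.027, adjusted p = 0.00291). SLC38A9, the lysosomal arginine sensor that contacts Ragulator, had a log2 fold change of −0.06 ± 0.036 (adjusted p = 0.259) and was not called.

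At the level of mTORC1 itself, differences were small. MTOR, the kinase, was at 58.9 ± 1.84 CPM with DMSO and 61.0 ± 2.30 CPM with ZW27941 (adjusted p = 0.222, edgeR), RPTOR, its adaptor, had a log2 fold change of −0.06 ± 0.028 (adjusted p = 0.0970), and RHEB, the activating GTPase, one of −0.00053 ± 0.030. Of the 5 mTORC1 genes, MLST8 alone passed, at −0.10 ± 0.031 (adjusted p = 0.0248), and lost the call without DMSO replicate 2 (0.102) or ZW27941 replicate 2 (0.146). TBC1D7, a subunit of the TSC complex that inactivates RHEB, fell by 0.13 ± 0.038 on the log2 scale (adjusted p = 0.0110), and lost the call without DMSO replicate 3 (0.0596) or ZW27941 replicate 2 (0.0638).

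Among 6 substrates of mTORC1, ULK1, the kinase that starts autophagy, fell from 93.7 to 86.3 CPM (log2 fold change −0.12 ± 0.026, adjusted p = 0.00162, edgeR). MITF, which the Rag GTPases hold at the lysosome, rose from 10.2 to 11.3 CPM (0.15 ± 0.046, adjusted p = 0.0174), a call lost without DMSO replicate 2 (0.0837), DMSO replicate 3 (0.0538) or ZW27941 replicate 1 (0.0764). TFEB, its relative, was at 41.1 ± 0.603 and 41.4 ± 1.32 CPM. MAP2K1, which encodes the MEK1 kinase that LAMTOR2 and LAMTOR3 scaffold, went from 102 to 94.0 CPM (−0.11 ± 0.025, adjusted p = 0.00141).

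BORC, a complex that binds Ragulator and moves lysosomes along microtubules, had 2 of 8 genes higher (25.0%) and 1 lower (12.5%). These shares stand beside 16.3% and 13.8% of all genes tested, and 23.5% and 18.7% of those whose mean log2 CPM reached 1. BORCS8 was at 17.7, 18.1 and 16.0 CPM with DMSO and 14.9, 14.3 and 14.7 CPM with ZW27941 (log2 fold change −0.24 ± 0.043, adjusted p = 1.95e-04, edgeR). BORCS6, also called lyspersin, rose from 9.02 to 10.3 CPM (0.19 ± 0.054, adjusted p = 0.00962), a call lost without DMSO replicate 1 (0.0753). SNAPIN, the other that rose, had a log2 fold change of 0.10 ± 0.031 (adjusted p = 0.0165) and lost the call without DMSO replicate 1 (0.0737), DMSO replicate 2 (0.0694) or ZW27941 replicate 2 (0.0918).

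**Figure D5:**
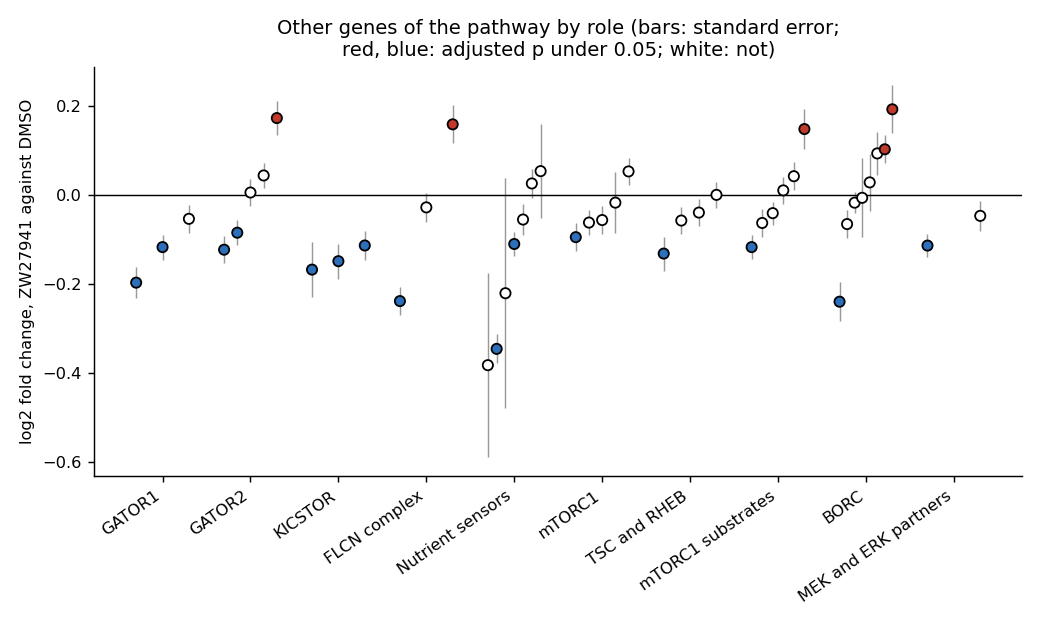
Log2 fold change (ZW27941 minus DMSO) of the 46 pathway genes, grouped by role, 1 point per gene with bars of 1 SE, coloured by call at an adjusted p of 0.05. The 3 KICSTOR genes lie below 0, and SESN2 at −0.35 and FLCN at −0.24 are the called genes with the lowest p.

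Genes whose pattern over the 6 libraries was most like that of LAMTOR2 were ranked by the root mean square difference of centred log2 CPM (with 0.1 CPM added) among 12237 genes whose mean log2 CPM reached 1. CHCHD1, a mitochondrial ribosome gene, was nearest, at a difference of 0.0212. It was at 28.1, 27.4 and 28.5 CPM with DMSO and 40.0, 39.3 and 41.9 CPM with ZW27941, so that in both genes ZW27941 replicate 2 was the lowest and replicate 3 the highest of the treated libraries. CYP27B1, the enzyme that activates vitamin D, followed at 0.0316, then RP11-84C10.2 at 0.0326, TYMSOS, antisense to the thymidylate synthase gene, at 0.0368, and GON7, a subunit of the tRNA-modifying KEOPS complex, at 0.0370. Their log2 fold changes were 0.53, 0.53, 0.56, 0.62 and 0.59 in the same order. None of the 8 other members was near: RRAGC was the closest, at a difference of 0.210 and rank 1681, and LAMTOR3 the farthest, at 0.330 and rank 10079. This difference mostly restates how far each log2 fold change lies from that of LAMTOR2. Since the rise of LAMTOR2 was known at the choice, nothing further is read from the ranks of the members.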

How the data were processed

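RNA from 6 MOLM13 samples, 3 with DMSO and 3 with ZW27941, was sequenced. Raw HTSeq counts, not normalized, were deposited by the authors for each library under gene symbols. The submitters' processing notes name HISAT2, SAMtools 1.19.2, HTSeq 2.0.3 and the hg38 build. The gene annotation and the strand setting are not given in the sources used here. Groups were taken from the labels. The 5 HTSeq tallies of each library, 37.4 to 39.8% of the reads tallied, were left out. Of 56305 genes, 21603 had no count.

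Counts were fitted in R 4.3.3 with edgeR 4.0.16 (TMM factors 0.994 to 1.01, filterByExpr, quasi-likelihood test) on all 6 libraries, with Benjamini-Hochberg adjustment over 20399 genes and a threshold of 0.05. The SE of a log2 fold change is its size divided by the square root of F. The script was tested on simulated data. Gene positions, transcript lengths and neighbours were matched by symbol to GENCODE v29, so a neighbour whose symbol differs there is missed, and upstream sequences to RefSeq. Alternatives were other scalings and filters, DESeq2 1.42.0, a replicate block and each library left out, 13 in all.

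The members and lists were chosen with earlier results of these data known. Genes named were the 9 members, METTL3, in each pathway role the 2 called genes with the lowest p, the overlapping and nearest genes, the 3 genes around LAMTOR2 with the lowest p, and the 5 genes most like LAMTOR2. Any other gene was named after its value was seen. Besides the 46 pathway genes listed, 1 gene was left out of the list and is not reported here.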

Additional observations from a re-analysis of the deposited data

How the results depend on the processing

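Of the 9 members, 5 passed the threshold in the fit reported, 4 under RLE scaling, library size alone, no filter, a minimum of 10 counts or DESeq2, 2 under upper-quartile scaling, and 1 to 5 when a library was left out. The cause of the change under upper-quartile scaling was not tested. That scaling moved the share of called genes that were lower from 45.8% to 57.9% (2644 higher, 3643 lower). Same-numbered libraries did not pair (correlations of deviations −0.0122, 0.0118 and 0.0169, and not every library correlated best with its own number). With the replicate block, 6010 genes passed in place of 6149, and 4 members. The sign of some small log2 fold changes reversed. RRAGB was at 0.0067 with library size alone and 0.0021 with no filter, and between −0.023 and 0.017 when a library was left out. LRTOMT was at 0.0075 with library size alone and 0.0028 with no filter, and DAPP1 at 0.0037 with library size alone. When a library was left out, LRTOMT ran from −0.028 to 0.040, DAPP1 from −0.029 to 0.014 and USP51 from −0.27 to 0.030. With the union of exons as length, LAMTOR1 was at 16.6, LAMTOR2 at 27.8, LAMTOR4 at 27.3, LAMTOR5 at 27.8, RRAGB at 5.95 and RRAGC at 1.53 CPM per kb with DMSO. The paralog shares were then 23.4 and 22.9% for RRAGB and 65.8 and 65.5% for RRAGD. Counting error is part of the spread: for RRAGC it was 2.78%, above the coefficients of variation over libraries of 2.43% with DMSO and 1.67% with ZW27941. For RRAGA, whose libraries did not overlap, it was 1.43%, above 0.700% with DMSO and 0.512% with ZW27941.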

Other observations

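The motif of ACTAC, any 3 bases and TCCCAG was searched after the LAMTOR2 sequence had been seen, and the other genes that hold it are given for comparison. Of 322 tested genes with a match near their start, LAMTOR2 not counted, 61 rose (18.9%) and 52 fell (16.1%). Their median log2 fold change was 0.0044. Of 1320 tested genes other than members with CACGTG near their start, 266 rose (20.2%) and 235 fell (17.8%). Over all genes tested, 16.3% rose and 13.8% fell. Among genes whose mean log2 CPM reached 1, 23.5% rose and 18.7% fell, which is above the shares of both sets of holders.

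GGACT, the sequence most favoured by the METTL3 methyltransferase, occurred once in the longest transcript of LAMTOR2 (868 bases, 1.15 per kb). RRAGC held 6 copies, the highest density of the members at 2.20 per kb. Over 15720 tested genes with 1 locus and a transcript sequence, the median was 0.902 per kb (quartiles 0.493 and 1.39). LAMTOR2 lay between these quartiles. No measurement of methylation was analysed here.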
